A study of Danio rerio with 24 samples.

Results

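Whole zebrafish larvae (Danio rerio) kept in 10 µM sodium arsenite were compared with whole larvae kept in 300 µg/L uranyl nitrate, to ask which genes tell the 2 metals apart when neither is read against unexposed larvae. The comparison rests on 8 of the 24 libraries of the study, 4 per metal, chosen by their labels and not by any measured value. All larvae were of the AB strain with a wildtype background, entered the solutions 4 hours after fertilization, had the medium changed 2 times a day, and were collected at 5 days, with 10 larvae pooled for each library. The spread between replicate pools was estimated with 12 further exposed libraries, 4 each of 1 µM arsenite, 30 µg/L uranyl nitrate and a mixture of those lower doses, and no unexposed library entered the main fit. The labels number the libraries of a group as biological replicates but do not say whether the pools came from separate clutches or dishes. The p-values thus measure the spread between these pools, which may be in part technical. The doses are given in different units and the labels do not say that they were matched for uptake or toxicity, so a difference belongs to these exposures and not to the metals at an equal dose.

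Arsenite is the trivalent, thiol-binding form of inorganic arsenic. In vertebrates it modifies cysteines of KEAP1, a protein that holds the transcription factor NRF2 for destruction, and free NRF2 then switches on genes for glutathione synthesis, glutathione S-transferases, thioredoxin and peroxiredoxin enzymes, NADPH supply and quinone or carbonyl reductases. Cells clear arsenic by joining it to glutathione, by methylating it and by pumping the products out. The uranyl ion is the soluble form of hexavalent uranium, known in mammals chiefly as a toxicant of the kidney proximal tubule that also deposits in bone mineral.

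The deposited values were FPKM, the fragments of a gene scaled to its length and to the total of its library. Whole reads recovered from these values came to between 18403389 and 21644105 per arsenite library and between 16542182 and 21585709 per uranyl library, a difference within the spread (exact two-sided permutation test, p = 0.257, where 0.0286 is the smallest that 4 against 4 allows). Log2 levels of all genes tested correlated at 0.982 to 0.985 within the 2 groups (12 pairs) and at 0.979 to 0.983 between them (16 pairs). Of 33 marker genes listed for the tissues of a larva, 32 were matched and 29 had at least 1 FPKM in all 8 libraries, and 2 of them differed between the metals, the enterocyte marker vil1 and the cartilage marker acana. The macrophage marker mpeg1.1 stayed at or below 0.201 FPKM in every one of the 8 libraries.

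At these doses 219 of 22468 genes tested differed between the metals, which is 0.975% of them (limma on log2(FPKM + 1), Benjamini-Hochberg adjusted p under 0.05). Of these, 157 genes were higher with arsenite (0.699% of the genes tested) and 62 were higher with uranyl nitrate (0.276%). Most differences were modest, with a median absolute log2 difference of 0.49, and 19 genes reached an absolute log2 difference of 1. Across all genes tested the median difference, arsenite minus uranyl nitrate, was 0.02 on the log2 scale, and 55.3% of the genes had a difference above 0. The 4 arsenite libraries did not overlap the 4 uranyl libraries in 217 of the 219 called genes, against 8.16% of all genes tested. That separation largely follows from the call, which used the same libraries, and is no further support for it. The count moved with single libraries, since 109 genes were called without arsenite library 1, 122 without arsenite library 3, 124 without uranyl library 2 and 116 without uranyl library 4. In all 8 refits that left out 1 of the 8 libraries, 83 of the 219 genes stayed called, 68 higher with arsenite and 15 higher with uranyl nitrate. Such genes are described below as held in all 8 refits. A fit of only the 8 libraries, without the 12 others, called 135 genes, of which 101 were among the 219. Because RNA came from whole larvae, fewer cells of a type and less RNA per cell cannot be told apart in any of these results.

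A list of carbonyl, aldehyde and prostaglandin reductases and further enzymes (the reductases below) held 24 genes tested. Of these, 8 were higher with arsenite (33.3%, against 0.699% of all genes tested) and none was lower. Among the 8, tstd1, ephx1 and aox5 are not reductase genes. The median log2 difference was 0.11 against 0.02 over all genes. The count of 8 became 5 without uranyl library 2 or in a fit of only the 8 libraries. Of the list's entries, 4 (zgc:123284, cbr1l, tstd1 and ptgr1.2) were on it because earlier results of these data had named them, so their share is not independent of the data. The gene zgc:123284 had 16.9, 21.5, 22.5 and 13.8 FPKM in the arsenite libraries and 2.24, 1.63, 2.39 and 1.83 FPKM in the uranyl libraries. Its mean was 9.23-fold higher with arsenite, with a log2 difference of 2.69 (SE 0.204, adjusted p = 3.72e-07). Even the lowest arsenite library lay far above the highest uranyl library, and above all 12 libraries of the other exposures.

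The next was ptgr1.2, a copy of prostaglandin reductase 1, an enzyme that also reduces reactive unsaturated aldehydes. It had 16.8, 18.9, 16.1 and 13.5 FPKM with arsenite and 2.41, 2.68, 2.99 and 2.23 FPKM with uranyl nitrate, a 6.32-fold gap in means (log2 difference 2.27, SE 0.143, adjusted p = 6.87e-08). Its neighbour in name ptgr1.1 was lower in level, at 2.9 to 5.64 FPKM with arsenite against 1.63 to 2.41 FPKM with uranyl nitrate, and differed by 0.89 (SE 0.144, adjusted p = 0.00291). Reads shared by these close copies may have been split between them, and the call of ptgr1.1 was lost in a fit of only the 8 libraries (adjusted p = 0.057). The carbonyl reductase gene cbr1l had 82.9, 68.7, 69.2 and 74.6 FPKM with arsenite against 41.6, 38.7, 44 and 41.2 FPKM with uranyl nitrate (log2 difference 0.82, SE 0.0625, adjusted p = 3.72e-07). Both groups stood out, since its arsenite libraries lay above, and its uranyl libraries below, all 12 other exposed libraries. For tstd1, which encodes a small sulfurtransferase-like protein, the ranges were 42.9 to 50.9 and 26.8 to 33.1 FPKM (log2 difference 0.58, SE 0.0659, adjusted p = 6.26e-05). The last 3 called genes were the epoxide hydrolase gene ephx1, the aldose reductase gene akr1b1.1 and the aldehyde oxidase gene aox5, with log2 differences of 0.34, 0.28 and 0.61 (adjusted p = 0.0117, 0.0338 and 0.036). Of these, akr1b1.1 and aox5 were named after their values were seen. Single libraries decided all 3 calls, ephx1 losing its call without arsenite library 1 (adjusted p = 0.0536) or uranyl library 2 (0.0516), and akr1b1.1 without arsenite library 2 or 4 or uranyl library 2 or 4 (0.0705 to 0.121). The call of aox5 was lost without any 1 of the libraries except arsenite library 2 (0.0655 to 0.125).

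Glutathione S-transferases, which join glutathione to electrophiles, formed the second group. Of 21 tested, 6 were higher with arsenite (28.6%, against 0.699% of all genes tested) and none was lower, with a median log2 difference of 0.24. Like the other lists, it was chosen with earlier results of these data known, so its share is not independent of them. The highest mean levels of the list were those of gstp1.2, of the pi class, and gsto2, of the omega class, to which the human enzyme that reduces methylated arsenic belongs. For gsto2 the libraries had 279, 237, 242 and 187 FPKM with arsenite and 98.7, 88.4, 96.1 and 87 FPKM with uranyl nitrate, a 2.55-fold gap (log2 difference 1.33, SE 0.0862, adjusted p = 6.87e-08). The other omega member, gsto1, had 27.5, 26.7, 25.4 and 25.9 FPKM against 12.4, 11.5, 13.9 and 13.6 FPKM, 2.06-fold apart (log2 difference 0.99, SE 0.0713, adjusted p = 2.34e-07). Within each metal the 4 gsto1 libraries differed little from each other, and the groups were well apart.

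The pi-class gene gstp1.2 had 466, 443, 364 and 368 FPKM with arsenite and 247, 241, 231 and 235 FPKM with uranyl nitrate (log2 difference 0.77, SE 0.0708, adjusted p = 4.99e-06). Its close copy gstp1.1 ran from 35.6 to 43.7 FPKM against 18.9 to 28.4 FPKM, a log2 difference of 0.75 (SE 0.131, adjusted p = 0.0063), and the 2 genes could share reads. The microsomal transferase gene mgst3b differed by 0.82 (SE 0.0845, adjusted p = 1.81e-05). The alpha-class gene gsta.1 had 43.2 to 63.2 FPKM with arsenite and 18.6 to 23.7 FPKM with uranyl nitrate, 2.5-fold apart. Its log2 difference of 1.27 carried a larger SE of 0.252 (adjusted p = 0.017), beside a spread of 17.9 to 54.6 FPKM among the mixture libraries, and the call was lost without arsenite library 1 (adjusted p = 0.0744) or uranyl library 4 (0.0535). The theta-class gene gstt1a, named after its values were seen, had the lowest value of the list, a log2 difference of -1.37 that was not called (adjusted p = 0.598).

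**Figure D1:**
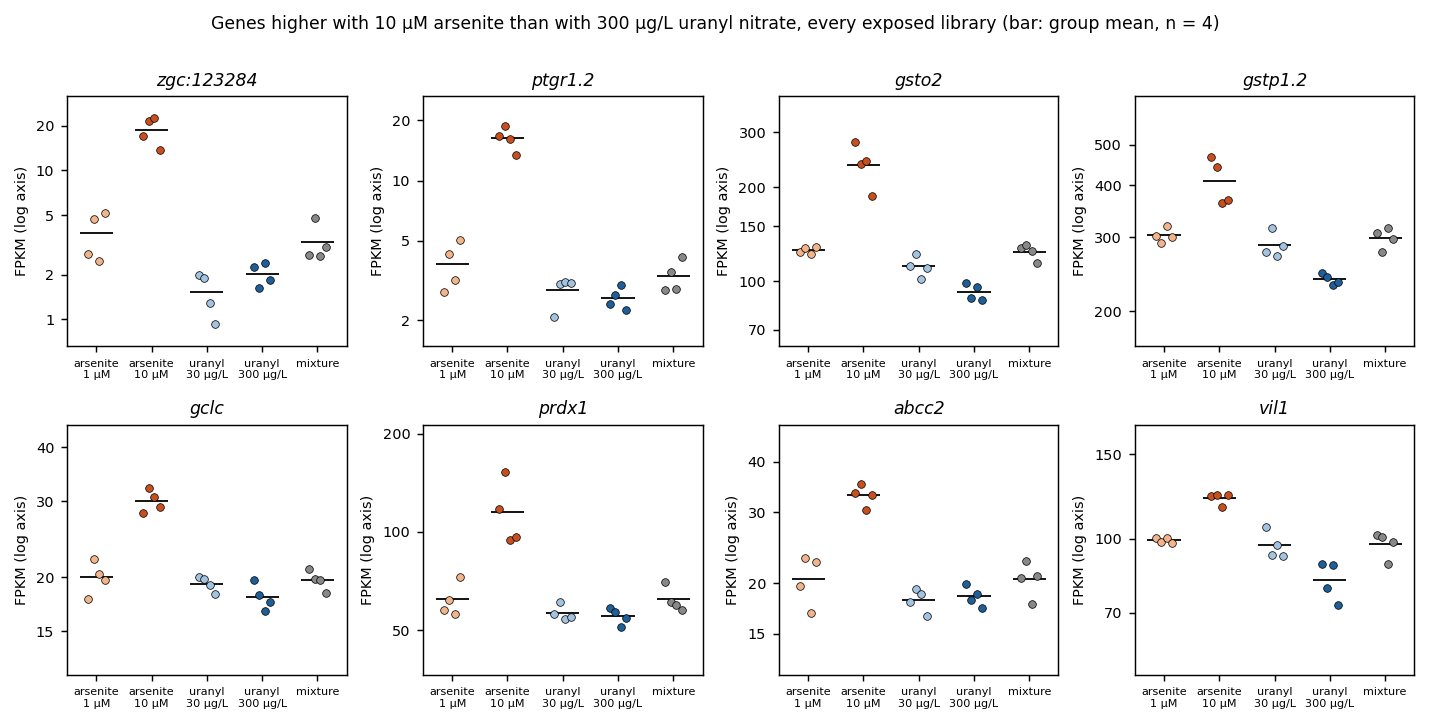
FPKM on a log axis of 8 genes in all 20 exposed libraries, 4 per group, with the group mean as a bar. In zgc:123284, ptgr1.2, gclc, prdx1 and abcc2 the 10 µM arsenite libraries stand above the other groups, and in gsto2, gstp1.2 and vil1 the 300 µg/L uranyl libraries also lie below them.

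Among 27 genes of NRF2 signalling, glutathione synthesis, thioredoxin and NADPH supply, 11 were higher with arsenite (40.7%) and gpx1b was lower (3.7%). Over all genes tested these shares were 0.699% and 0.276%. The median log2 difference of the list was 0.31, with 24 of 27 members above 0. The count of 11 became 7 in a fit of only the 8 libraries. Of the called members, prdx6, me1, tktb, keap1a and gpx1b were named after their values were seen. Both subunits of glutamate-cysteine ligase, the enzyme that makes the first bond of glutathione, were among them. The catalytic subunit gclc had 28.2, 32.2, 30.6 and 29.1 FPKM with arsenite and 19.7, 18.2, 16.6 and 17.6 FPKM with uranyl nitrate (log2 difference 0.71, SE 0.0632, adjusted p = 3.6e-06). The modifier subunit gclm had 10.9, 12.5, 10.5 and 9.85 FPKM against 7.14, 7.04, 6.4 and 6.11 FPKM (log2 difference 0.64, SE 0.0895, adjusted p = 0.000695). The 2 subunits thus moved by nearly the same ratio of means, 1.67-fold and 1.64-fold.

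Glutathione reductase, which returns oxidised glutathione to its reduced form, is encoded by gsr, and its libraries had 25.3, 35.5, 27.7 and 25.2 FPKM with arsenite and 13.7, 14.7, 12.1 and 14.9 FPKM with uranyl nitrate. That gap of 2.05-fold was a log2 difference of 0.98 (SE 0.121, adjusted p = 0.000173). The peroxiredoxin gene prdx1, whose product breaks down peroxides, had 117, 152, 94.6 and 96.2 FPKM against 58.3, 56.6, 51.1 and 54.3 FPKM (log2 difference 1.02, SE 0.115, adjusted p = 5.42e-05). In both genes arsenite library 2 was the highest, and both were held in all 8 refits. Smaller differences were found for the glutaredoxin gene glrx (0.54, adjusted p = 0.000141), the thioredoxin reductase gene txnrd3 (0.34, adjusted p = 0.000795) and the peroxiredoxin gene prdx6 (0.29, adjusted p = 0.000835, but 0.0536 in a fit of only the 8 libraries).

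NADPH, which both reductases spend, is made by malic enzyme (me1) and by the pentose phosphate pathway, to which the transketolase gene tktb belongs. The gene me1 had 17.6 to 21.2 FPKM with arsenite and 14.2 to 15.3 FPKM with uranyl nitrate (log2 difference 0.36, adjusted p = 0.0065), and tktb had 97.3 to 117 and 83.4 to 86.2 FPKM (0.32, adjusted p = 0.0041, but 0.0707 in a fit of only the 8 libraries). KEAP1 is encoded in zebrafish by a pair of genes, of which keap1a differed by 0.37 (adjusted p = 0.0185) but not without arsenite library 3 (0.0682), uranyl library 1 (0.0628) or uranyl library 3 (0.0556).

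The glutathione peroxidase gene gpx1b went the other way. It had 22.3, 23, 18.1 and 18.6 FPKM with arsenite and 31.1, 35.8, 31.2 and 39 FPKM with uranyl nitrate, 1.67-fold higher with uranyl nitrate (log2 difference -0.72, SE 0.109, adjusted p = 0.00145). Its arsenite libraries lay below all 12 libraries of the other exposures, so the arsenite group was the one that stood apart. Heme oxygenase, a textbook NRF2 target encoded by hmox1a, overlapped between the metals at 9.56 to 15.8 and 8.43 to 13.4 FPKM (log2 difference 0.34, SE 0.18, adjusted p = 0.441).

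Of 24 genes for arsenic uptake, methylation and export, 1 was higher with arsenite and 1 was lower (4.17% each, against 0.699% and 0.276% of all genes tested). Each share rests on a single gene. The exporter gene abcc2, whose human counterpart moves glutathione conjugates into bile and urine, had 33.5, 35.3, 30.3 and 33.1 FPKM with arsenite and 20, 18.2, 18.8 and 17.4 FPKM with uranyl nitrate (log2 difference 0.80, SE 0.0864, adjusted p = 3.24e-05). Its arsenite libraries lay above all 12 other exposed libraries. The related gene abcc5, which encodes an exporter of cyclic nucleotides, was lower with arsenite, at 74.8 ± 3.65 against 89.2 ± 3.33 FPKM (mean ± SD of 4 libraries each), a log2 difference of -0.25 (SE 0.0457, adjusted p = 0.00866), and here it was the uranyl libraries that lay outside the other 12. That call was lost in a fit of only the 8 libraries (adjusted p = 0.0607). The arsenic methyltransferase gene as3mt had 13 ± 1.16 FPKM with arsenite and 12.7 ± 0.267 FPKM with uranyl nitrate (mean ± SD of 4 libraries each), a log2 difference of 0.03 (SE 0.069, adjusted p = 0.909).

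Metallothioneins are proteins that bind metals through cysteines. None of 24 genes of the metallothionein and zinc list was called (limma). The libraries of the metals did not overlap in 2 genes higher and 2 genes lower with arsenite, against 4.89% and 3.28% of all genes tested. The gene mt2 had 14.1 to 22.3 FPKM with arsenite and 13.5 to 15.8 FPKM with uranyl nitrate. Its log2 difference of 0.22 carried an SE of 0.86, and mt2 spread from 6.5 to 203 FPKM over the 12 other libraries. Among 37 cytosolic heat shock and chaperonin genes, the co-chaperone gene stip1 was called higher with arsenite (log2 difference 0.19, adjusted p = 0.0194). That single gene was 2.7% of the list, against 0.699% of all genes tested. Its call was lost without arsenite library 1, uranyl library 1 or uranyl library 2 (0.0639 to 0.0817). The inducible gene hsp70l had 12.4, 35.2, 6.85 and 12 FPKM with arsenite and 9.54, 14.3, 10.4 and 32.3 FPKM with uranyl nitrate. One library of each group was high, and the groups overlapped (adjusted p = 0.973).

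In the list of heme breakdown and iron genes 4 of 35 were higher with arsenite (11.4%) and 1 was lower (2.86%), with a median of 0.19. Over all genes tested these shares were 0.699% and 0.276%. The rate-limiting enzyme of heme synthesis in most tissues is encoded by alas1, which had 118, 127, 124 and 122 FPKM with arsenite and 84.9, 84.9, 71.9 and 84.8 FPKM with uranyl nitrate (log2 difference 0.59, SE 0.0705, adjusted p = 0.000124). The heme-binding protein gene soul5 had 120 to 137 FPKM against 99.2 to 106 FPKM (0.34, adjusted p = 0.0065). These 2 genes were held in all 8 refits. The calls of hebp2 and the ferritin gene fthl29, both higher with arsenite, were lost in 7 of the 8 refits, with adjusted p-values from 0.0511 to 0.155. The call of soul3, which was lower with arsenite, was lost in 5 of 8.

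**Figure D2:**
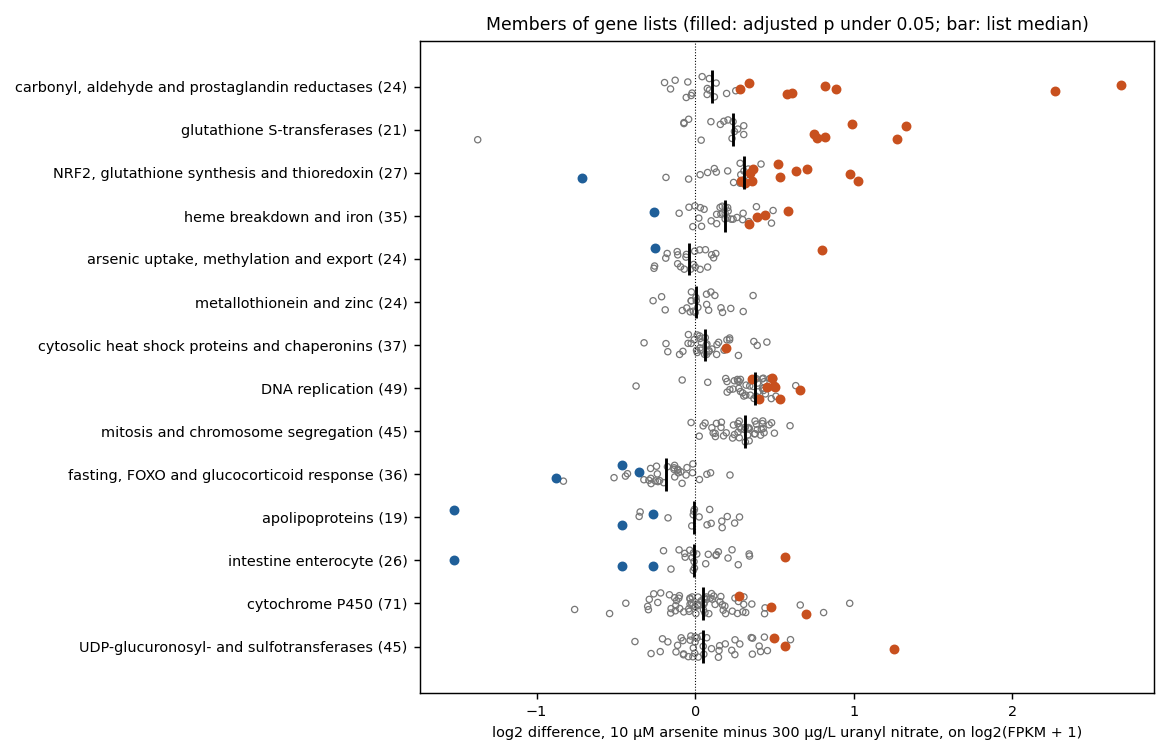
Log2 difference, 10 µM arsenite minus 300 µg/L uranyl nitrate on log2(FPKM + 1), for every tested member of 14 gene lists, with called genes filled, other genes open and the list median as a bar. Called members of the first 3 lists lie to the right except gpx1b, and those of the fasting list and the apolipoproteins lie to the left. DNA replication (8 of 49 genes called) and mitosis (none of 45 called) are shifted to the right.

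Of 26 enterocyte genes, vil1 was higher with arsenite (3.85%) and 3 apolipoprotein genes were lower (11.5%), with a list median of -0.01. Over all genes tested these shares were 0.699% and 0.276%. Villin, the actin-bundling protein of microvilli encoded by vil1, had 123, 123, 117 and 124 FPKM with arsenite and 88.3, 78.7, 88 and 72.7 FPKM with uranyl nitrate (log2 difference 0.57, SE 0.0596, adjusted p = 2.19e-05). Its arsenite libraries lay above, and its uranyl libraries below, the 12 others. Outside that list, the lactase gene lct had 3.58 to 4.43 FPKM against 0.96 to 1.69 FPKM, 3.16-fold apart (log2 difference 1.16, SE 0.161, adjusted p = 0.000606). The sucrase-isomaltase gene si, also outside the list and chosen for mention after its values were seen, had 108, 106, 126 and 113 FPKM against 64.7, 51.6, 69.2 and 55.5 FPKM (0.90, SE 0.0884, adjusted p = 9.36e-06).

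Apolipoprotein A-IV, which coats dietary fat particles made in the gut, is encoded by several neighbouring copies, and 3 of them were higher with uranyl nitrate. The copy apoa4b.3 had 17.1, 31.1, 24.8 and 24.1 FPKM with arsenite and 64.1, 72.4, 65.6 and 79.6 FPKM with uranyl nitrate, 2.9-fold higher with uranyl nitrate (log2 difference -1.52, SE 0.21, adjusted p = 0.000572). The copy apoa4b.2 had 194, 253, 215 and 230 FPKM against 294, 303, 311 and 319 FPKM (-0.46, SE 0.0734, adjusted p = 0.00224). For apoa4b.1 the ranges were 394 to 429 and 477 to 521 FPKM (-0.26, adjusted p = 0.0151), a call lost without arsenite library 1 (0.0682) or arsenite library 3 (0.0504) and with all 24 libraries in the fit (0.0804). The uranyl libraries stood apart from the 12 others in apoa4b.3 and the arsenite libraries did so in the other copies, and reads shared between copies may have been split. The enterocyte markers fabp2 and fabp6 were not called (adjusted p = 0.788 and 0.584). Of 19 apolipoprotein genes the 3 copies were the called ones (15.8%, against 0.276% of all genes tested called lower), and 9 of the 19 had a difference above 0.

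Calls among conjugation and oxidation enzymes of drug metabolism were all in one direction. Of 45 UDP-glucuronosyl- and sulfotransferases 3 were higher with arsenite (6.67%), and of 71 cytochrome P450 genes 3 were (4.23%). Over all genes tested that share was 0.699%. The largest was ugt1a7, which joins glucuronic acid to foreign compounds, with 24.7, 15.9, 17.3 and 16.6 FPKM against 6.86, 6.8, 8.19 and 6.69 FPKM (log2 difference 1.25, SE 0.117, adjusted p = 5.4e-06). In ugt1a7 it was the uranyl group that lay below all 12 other exposed libraries, whose highest value among the mixture libraries was 18.3 FPKM. The sulfotransferase gene sult6b1 (0.50, adjusted p = 0.000238), the glucuronosyltransferase gene ugt1a1 (0.57, adjusted p = 0.0108) and cyp2y3 (0.48, adjusted p = 0.000397) were also held in all 8 refits. The gene ugdh, which makes the glucuronic acid donor, had 4.33 to 8.21 FPKM against 1.7 to 3.1 FPKM, 2.65-fold apart (SE of the log2 difference 0.235, adjusted p = 0.029), and it lost its call in 6 of the 8 refits (0.0523 to 0.103) and with a pseudocount of 0.1 (0.0868). So did cyp2r1, which encodes a vitamin D hydroxylase, and cyp7b1, an oxysterol hydroxylase, each in 6 of 8 refits with adjusted p-values from 0.056 to 0.137.

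Of 49 DNA replication genes tested, 8 were called higher with arsenite (16.3%, against 0.699% of all genes tested) and none lower. A log2 difference above 0 was found in 47, and the median was 0.38 against 0.02 over all genes. The 2 groups of libraries did not overlap in 27 of 49 genes, against 4.89% of all genes tested for that direction. In 26 of the 49 genes the 4 uranyl libraries lay below all 12 libraries of the other exposures, against 296 of all 22468 genes, and in none did the arsenite libraries lie above them. Summed over the list, the 300 µg/L uranyl libraries had 411 to 440 FPKM. The 10 µM arsenite libraries had 483 to 683 FPKM, the 1 µM arsenite libraries 504 to 661 FPKM, the 30 µg/L uranyl libraries 587 to 673 FPKM and the mixture libraries 530 to 692 FPKM.

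The 8 called genes were pola1 and prim1 of the polymerase that lays down primers, rfc1 and rfc4 of the complex that loads the sliding clamp, rpa1 and rpa3 of the protein that covers single-stranded DNA, the histone chaperone gene chaf1b, and dhfr, which supplies folate for nucleotide synthesis. The gene rpa3 had 17.2, 12.1, 16.9 and 18.2 FPKM with arsenite and 8.74, 9.99, 11.4 and 8.79 FPKM with uranyl nitrate, 1.65-fold apart (log2 difference 0.66, SE 0.129, adjusted p = 0.0151). The gene rpa1 had 33.9, 26.2, 30.3 and 28.7 FPKM against 21.4, 22.6, 22.7 and 22.2 FPKM (0.40, SE 0.0796, adjusted p = 0.0174). Arsenite library 2 was the lowest of its group in both genes, and the other 6 differences lay between 0.36 for rfc1 and 0.53 for chaf1b. Each of these calls was lost in 4 to 7 of the 8 refits, and pola1 and chaf1b were named after their values were seen. The count of 8 became 0 without arsenite library 1, arsenite library 3 or uranyl library 4, 1 without uranyl library 1, 2 without arsenite library 4, 3 without uranyl library 2, 4 without uranyl library 3, 15 without arsenite library 2, 5 when every library was rescaled to the same total, and 0 in a fit of only the 8 libraries. The list median stayed between 0.29 and 0.44 when any 1 of the 8 libraries was left out. Among 45 genes of mitosis and chromosome segregation none was called (limma), although 44 had a difference above 0 and the median was 0.31. For these the 300 µg/L uranyl libraries summed to 138 to 174 FPKM and the arsenite libraries to 163 to 225 FPKM, so the groups overlapped. At the lower doses, 1 µM arsenite minus 30 µg/L uranyl nitrate, both lists leaned the other way. There 2 of the 45 mitosis genes and 11 of the 49 replication genes had a difference above 0, against 48.3% of all genes tested. Their medians were -0.17 and -0.09.

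**Figure D3:**
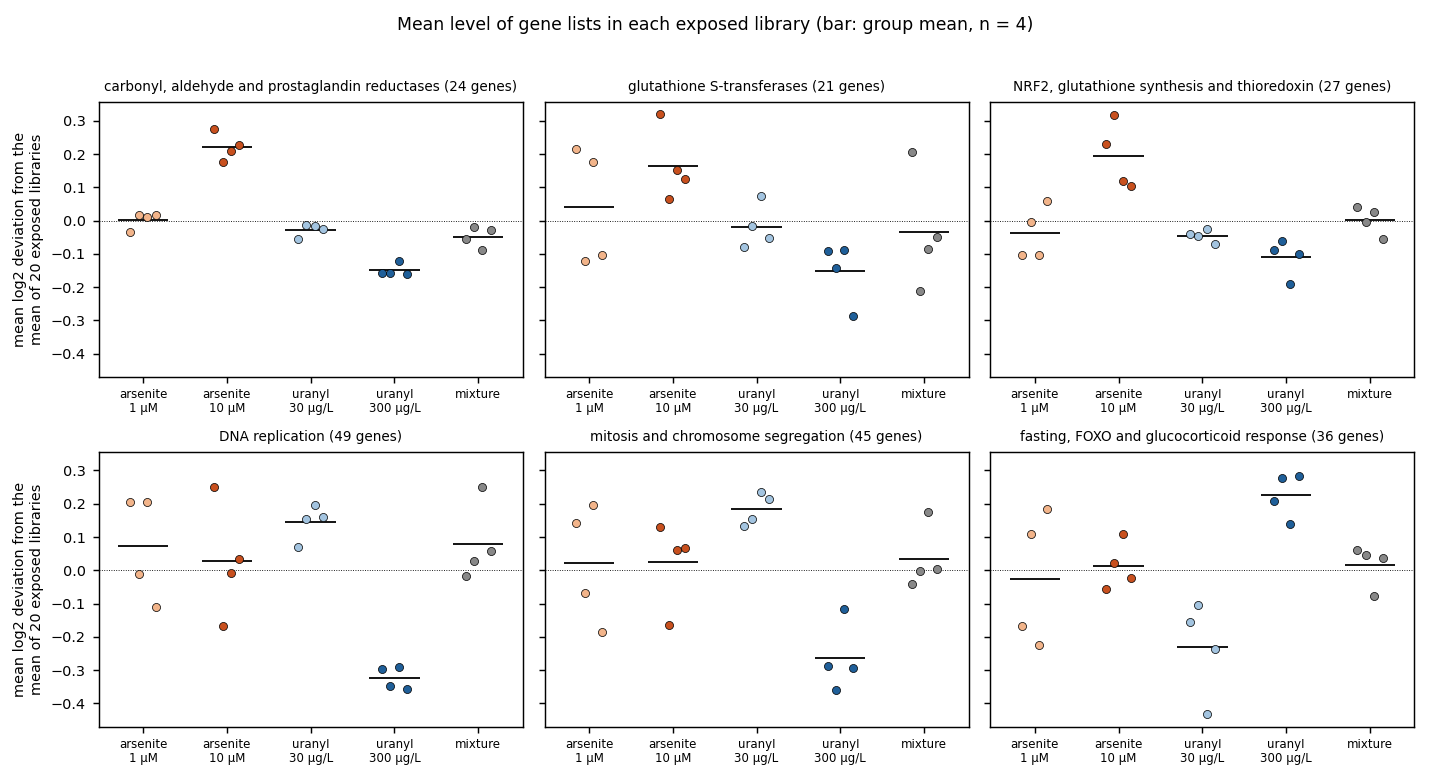
Mean log2 deviation of each of 6 gene lists from the mean of the 20 exposed libraries, 1 point per library and a bar at the group mean. For the reductases, transferases and NRF2 genes the 10 µM arsenite group has the highest mean, although its transferase values overlap those of 1 µM arsenite, 30 µg/L uranyl nitrate and the mixture; for DNA replication and mitosis the 300 µg/L uranyl libraries are the low group; for the fasting list uranyl nitrate is low at 30 µg/L and high at 300 µg/L.

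Of 36 genes that respond to fasting, FOXO factors and glucocorticoids, 3 were called lower with arsenite (8.33%, against 0.276% of all genes tested) and none higher. A difference above 0 was found in 4, with a list median of -0.19. In 11 of the 36 the libraries of the metals were separate, all lower with arsenite, against 3.28% of all genes tested for that direction. The 3 called genes were ddit4, whose product restrains the growth kinase complex mTORC1, angptl4, an inhibitor of lipoprotein lipase, and arrdc2, an arrestin-domain gene. These calls are not particular to this list. The gene ddit4 was also the 1 called member of 40 unfolded protein and amino acid stress genes (2.5%). Likewise, arrdc2 was the 1 called member of 7 arrestin-domain genes (14.3%). For ddit4 the libraries had 49.7, 53.9, 37.2 and 41.7 FPKM with arsenite and 79.4, 85.8, 81 and 89.8 FPKM with uranyl nitrate, 1.84-fold higher with uranyl nitrate (log2 difference -0.88, SE 0.162, adjusted p = 0.00986), and the call was held in all 8 refits. The gene angptl4 had 44, 47.7, 54.2 and 49.5 FPKM against 61.3, 63, 60.6 and 66 FPKM (-0.36, SE 0.0733, adjusted p = 0.0222). That call was lost without arsenite library 1 (0.0944), uranyl library 2 (0.0639) or uranyl library 4 (0.0827). The call of arrdc2, with 62.7 to 76.5 against 91.5 to 101 FPKM (-0.46, adjusted p = 0.0419), was lost in 7 of the 8 refits (0.0536 to 0.15). The count of 3 became 1 without arsenite library 1, uranyl library 2 or uranyl library 4. The stress-responsive gene ndrg1b followed the same direction outside the list, with 28.7 ± 5.69 against 53 ± 11.8 FPKM (mean ± SD of 4 libraries each, log2 difference -0.86, SE 0.175, adjusted p = 0.0215), and lost its call without arsenite library 1 or 3 or uranyl library 2 or 4 (0.0507 to 0.0909).

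The 2 doses of uranyl nitrate lay apart in this list. Summed FPKM ran from 2832 to 3330 at 300 µg/L and from 1744 to 2335 at 30 µg/L, with no overlap, and from 2369 to 2857 at 10 µM arsenite. In the lower-dose contrast, 1 µM arsenite minus 30 µg/L uranyl nitrate, the list leaned the other way. There 28 of the 36 genes had a difference above 0, against 48.3% of all genes tested, and the median was 0.20. The arrestin-domain gene arrdc3b differed in the higher-dose contrast by -0.25 (adjusted p = 0.208) and in the lower-dose contrast by 0.50 (adjusted p = 0.064), and the difference between these contrasts was -0.75 (SE 0.128, adjusted p = 0.012).

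**Figure D4:**
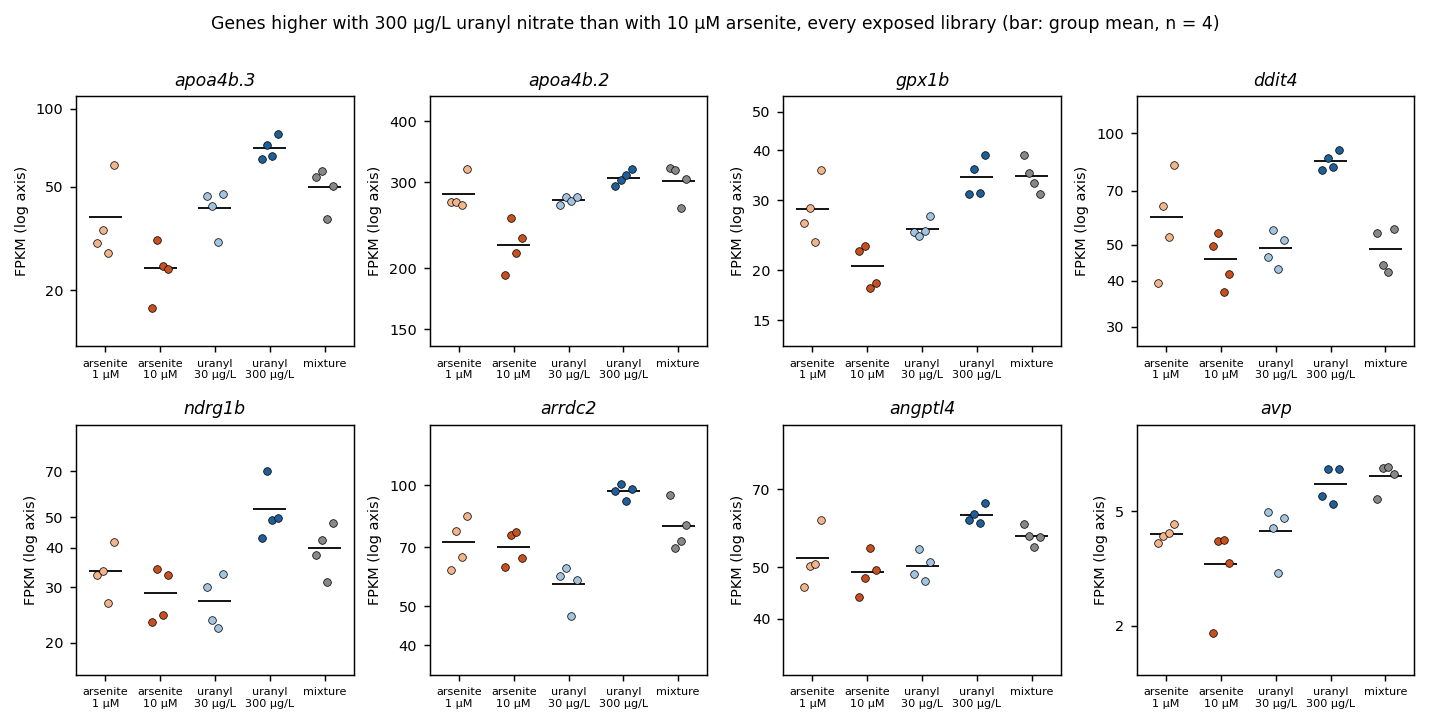
FPKM on a log axis of 8 genes that were higher with 300 µg/L uranyl nitrate than with 10 µM arsenite, in all 20 exposed libraries with the group mean as a bar. In apoa4b.3 the 300 µg/L uranyl libraries lie above all other groups, whereas in apoa4b.2 and gpx1b the 10 µM arsenite libraries lie below them.

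Of 48 genes of neurons and peptide hormones, 2 were called lower with arsenite (prl2 and avp) and none higher, with a median log2 difference of -0.08. Those 2 were 4.17% of the list, against 0.276% of all genes tested. The gene with the widest gap of all called genes encodes another hormone outside that list. Somatolactin beta, a fish pituitary hormone encoded by smtlb, had 13.5, 14.4, 11 and 2.3 FPKM with arsenite, from 38 to 266 reads per library. With uranyl nitrate it had 0.133, 0.615, 0.271 and 0.353 FPKM, from 2 to 9 reads. Its log2 difference of 2.86 carried an SE of 0.535 (adjusted p = 0.0112), and the call was lost without arsenite library 1 (0.0508) and when the recovered reads were tested with limma-voom (0.17). The mixture libraries alone spread from 0.975 to 14 FPKM. The second prolactin gene, prl2, was lower with arsenite, with 0.504, 0.476, 0.465 and 0.32 FPKM against 0.94, 1.02, 1.81 and 0.872 FPKM (log2 difference -0.57, SE 0.12, adjusted p = 0.0275) from 6 to 10 and 14 to 38 reads. The vasopressin gene avp had 1.89, 3.93, 3.98 and 3.31 FPKM against 5.63, 7.01, 5.29 and 7.02 FPKM (-0.78, SE 0.151, adjusted p = 0.0144). Calls of prl2 were lost in 5 of the 8 refits (0.0563 to 0.0786) and that of avp without uranyl library 2 (0.0573) or 4 (0.0568).

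Other genes with the largest differences had structural or unassigned roles. The otolith matrix gene stm had 235, 233, 215 and 104 FPKM with arsenite and 66.4, 85.9, 72.6 and 80.9 FPKM with uranyl nitrate (log2 difference 1.29, SE 0.256, adjusted p = 0.0174), with arsenite library 4 far below the rest of its group. Its call was lost without arsenite library 1 or 3 or uranyl library 1 (0.0584 to 0.0773). The uncharacterised gene zgc:163022 had 32.2, 42.6, 30.9 and 31.5 FPKM against 15.8, 14.7, 14.8 and 13.8 FPKM (1.15, SE 0.0836, adjusted p = 2.34e-07) and was held in all 8 refits. The gene aep1, which encodes an aerolysin-like protein, had 15.8 to 28.1 against 6.94 to 12.7 FPKM (1.14, adjusted p = 0.0202) and LOC100002043 had 3.09 to 7.38 against 0.452 to 2.39 FPKM (1.49, adjusted p = 0.0475). Both lost their calls when single libraries were left out, aep1 in 4 and LOC100002043 in 6 of the 8 refits.

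On the side of uranyl nitrate, LOC100536946 had 0.894, 0.761, 0.689 and 0.498 FPKM with arsenite and 2.43, 5.69, 3.37 and 3.98 FPKM with uranyl nitrate, from 7 to 12 and 31 to 71 reads (log2 difference -1.47, SE 0.21, adjusted p = 0.000762). Its arsenite libraries lay below all 12 others. The gene si:dkey-205h13.2 had 23.9 to 41.6 FPKM with arsenite against 55.9 to 69.9 FPKM with uranyl nitrate (-1.12, adjusted p = 0.0065), and ly6m2 had 6.91 to 8.89 against 14.2 to 16.7 FPKM (-0.87, adjusted p = 0.00753). With LOC100536083 (-1.08, adjusted p = 0.00195) and LOC100005908 (-0.95, adjusted p = 0.00745), these were held in all 8 refits. The remaining genes with the largest decreases, LOC560023 (-0.85), si:ch211-182p11.1 (-0.88), pcmtd2a (-0.83) and the annexin gene anxa1c (-0.94), lost their calls in 6 or 7 of the 8 refits, with adjusted p-values up to 0.141. A second annexin gene, anxa1b, was higher with arsenite, at 98.3 to 128 against 56.5 to 60.9 FPKM (0.92, SE 0.147, adjusted p = 0.00239), and was held in all of them, so that the 2 annexin genes differed in opposite directions.

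Kidney and bone are the tissues for which uranium is best known. In the kidney list and in the cartilage and bone list 1 gene each was called. The same held for the lists of skin and kidney ionocytes and of collagens, which are not particular to these tissues. The 1 gene was 3.03% of the kidney list and 3.45% of the ionocyte list, against 0.699% of all genes called higher with arsenite. It was 1.79% of the cartilage and bone list and 1.69% of the collagen list, against 0.276% of all genes called lower. Each of these shares rests on a single gene. Of 33 genes of kidney tubule and podocyte, slc26a1, which encodes a sulfate transporter, was higher with arsenite, at 4.74 to 5.27 against 3.19 to 3.83 FPKM (0.42, SE 0.0736, adjusted p = 0.00632). Of 29 ionocyte genes the calcium channel gene trpv6 was higher with arsenite, at 9.82 ± 1.78 against 4.82 ± 0.65 FPKM (mean ± SD of 4 libraries each, log2 difference 0.88, SE 0.167, adjusted p = 0.012), a call lost without arsenite library 1, arsenite library 3 or uranyl library 4 (0.0504 to 0.0514). Of 56 genes of cartilage, bone and collagen processing the aggrecan gene acana was lower with arsenite, at 9.39 to 10.7 against 11.9 to 13.7 FPKM (-0.29, SE 0.053, adjusted p = 0.00902, but 0.0931 in a fit of only the 8 libraries). Of 59 collagen genes col8a1b was lower (-0.46, adjusted p = 0.0226), which was lost in 4 of the 8 refits (0.052 to 0.0911). The collagen list as a whole leaned the other way, with a median of 0.11. A difference above 0 was found in 47 of the 59, against 55.3% of all genes tested. At the lower doses 14 of the 59 were above 0, against 48.3% of all genes tested.

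The other lists held at most a few called genes. Of 35 skin and keratin genes 3 were higher (8.57%) and 1 was lower (2.86%) with arsenite, the 2 annexin genes among them. Over all genes tested these shares were 0.699% and 0.276%. The cornified-envelope genes ppl and evpla were higher with arsenite by 0.27 each (adjusted p = 0.0108 and 0.0451), beside a summed FPKM of the list of 7604 to 8199 with arsenite and 7043 to 7634 with uranyl nitrate. Their part in the result was not tested, and evpla lost its call in 7 of the 8 refits. Of 49 photoreceptor genes, the cone arrestin gene arr3b was higher (0.46, adjusted p = 0.0237) and the cone phosphodiesterase subunit gene pde6hb was lower with arsenite (-0.22, adjusted p = 0.0359). Of 49 retinoid genes, the retinol-esterifying gene lratb.2 was called (0.80, adjusted p = 0.0353), and it was 1 of the 2 called genes whose groups overlapped. One member each was called among 28 p53 response genes (gadd45ab, 0.72, adjusted p = 0.0451), 36 sterol and fatty acid synthesis genes (elovl2, 0.54, adjusted p = 0.0472), 43 circadian clock genes (dbpb, -0.28, adjusted p = 0.0301) and 91 muscle genes (myhz1.1l, -0.37, adjusted p = 0.0338). In these lists a single gene was 2.04%, 2.04%, 3.57%, 2.78%, 2.33% and 1.1% of the members, in that order. Over all genes tested 0.699% were called higher and 0.276% lower. Each of these 7 calls was lost in at least 5 of the 8 refits. A fit of only the 8 libraries also ended the calls of ephx1, akr1b1.1, keap1a, soul3, hebp2, cyp7b1, stip1, ndrg1b, prl2, avp, stm, aep1, LOC100002043, LOC560023, pcmtd2a, evpla, elovl2, gadd45ab, dbpb, pde6hb, lratb.2 and myhz1.1l, with adjusted p-values from 0.0537 to 0.159.

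In lists of proteasome subunits (56 genes), cytosolic ribosomal proteins (78), ribosome biogenesis (69), nuclear-encoded respiratory chain (100), immediate early genes (39), cytokines (31), liver plasma proteins (43), exocrine pancreas enzymes (32), red cells (23), neutrophils and macrophages (33) and lens crystallins (57), no gene was called by limma. Their median log2 differences lay between -0.11 for neutrophils and macrophages and 0.18 for the crystallins. The share of members above 0 ran from 21.9% for exocrine pancreas enzymes to 84.2% for the crystallins. It was 76.8% for the proteasome subunits, against 55.3% of all genes tested. The crystallin median turned to -0.03 without arsenite library 3, and the summed crystallin FPKM ran from 1868 to 6810 with arsenite and from 1898 to 6317 with uranyl nitrate. Across all genes 2991 had an unadjusted p under 0.05, some of them by chance. A list with no call may still hold differences that this number of pools did not show.

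Of the genes that told the metals apart at the higher doses, 1 was called at the lower ones. The lower-dose contrast, 1 µM arsenite minus 30 µg/L uranyl nitrate, shares no library with the higher-dose contrast. It called 6 genes (0.0267% of those tested), 3 in each direction (0.0134% each), with 1697 at an unadjusted p under 0.05, and 0 genes in a fit of only those 8 libraries. Of the 219 genes, 113 had the same sign at the lower doses, which is 51.6% (95% exact binomial interval 44.8 to 58.4, which covers counting error only and treats genes as independent), beside 45.6% of all genes tested. Their median differences at the lower doses were 0.01 for the 157 genes higher with arsenite and 0.00 for the 62 lower ones, against 0.50 and -0.45 at the higher doses. The share depended on the libraries, since it was 60.6% for the genes called without arsenite library 1 and 41.1% for those called without arsenite library 2.

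Tested directly, the difference between the 2 contrasts was called in 95 genes, which is 0.423% of those tested, with 68 more in favour of arsenite at the higher doses (0.303%) and 27 less (0.12%). That count ran from 50 without uranyl library 3 of the 30 µg/L group to 157 without library 3 of the 1 µM arsenite group. The count was 53 without 10 µM arsenite library 1, 58 without 300 µg/L uranyl library 2, 53 without 300 µg/L uranyl library 4, 55 and 59 without 1 µM arsenite libraries 2 and 4, and 63 without 30 µg/L uranyl library 2. Of the NRF2 list 8 of 27 members were among the 95, of the transferases 5 of 21, of the reductases 4 of 24 and of the fasting list 5 of 36. This test uses the same higher-dose libraries as the calls, so genes called there are favoured in it. The list counts are therefore no further support for those calls. Both gsto2 and ptgr1.2 were also among the genes named for their small p in this contrast. For gsto2 the log2 difference between contrasts was 1.16 (adjusted p = 0.000124), for ptgr1.2 it was 1.95 (adjusted p = 0.000124) and for gclc 0.66 (adjusted p = 0.00138). None of the 49 replication genes was among them (limma). In zgc:123284 the lower-dose libraries had 2.76, 4.7, 2.45 and 5.2 FPKM with arsenite and 1.98, 1.88, 1.29 and 0.925 FPKM with uranyl nitrate, which did not overlap but missed the threshold (log2 difference 0.90, adjusted p = 0.264).

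**Figure D5:**
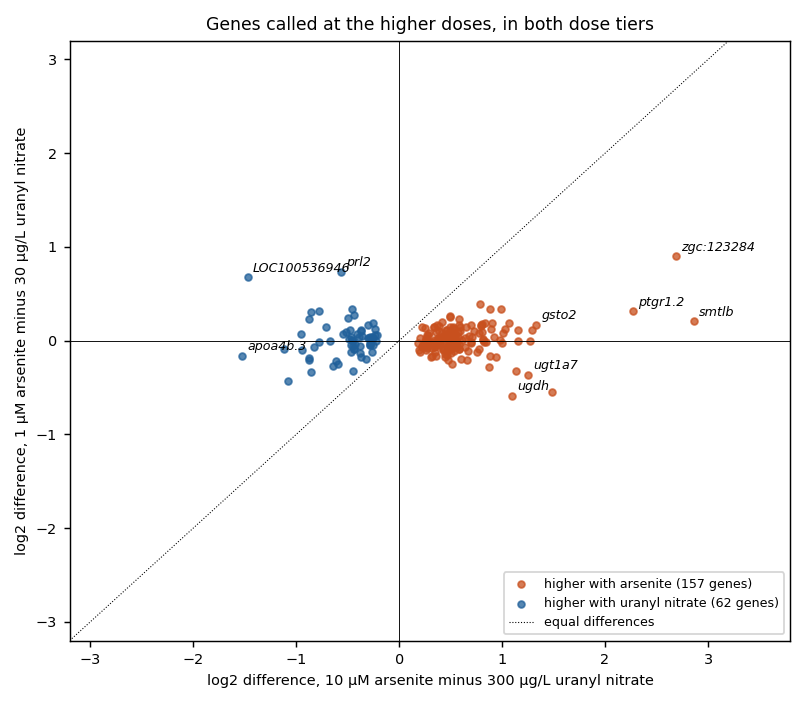
Log2 difference, arsenite minus uranyl nitrate, of the 219 genes called at the higher doses (x axis, 10 µM against 300 µg/L) and in the lower-dose libraries (y axis, 1 µM against 30 µg/L). The medians on the y axis are 0.01 and 0.00 for the genes higher and lower with arsenite, and 113 of 219 genes are on the same side of 0 in both contrasts; farther out on the y axis are zgc:123284 (0.90), prl2 (0.74), LOC100536946 (0.68) and ugdh (-0.59). On the x axis zgc:123284 is the rightmost gene but 1, and prl2 changes sign.

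The 6 genes called at the lower doses were other genes with 1 exception. The exception, prl2, had 1.4, 1.33, 1.01 and 1.48 FPKM with 1 µM arsenite and 0.293, 0.325, 0.463 and 0.436 FPKM with 30 µg/L uranyl nitrate (log2 difference 0.74, adjusted p = 0.0304), opposite in sign to the higher doses. The ribosomal protein gene rps15 had 5.28 to 6.16 FPKM with arsenite and 10.9 to 15.7 FPKM with uranyl nitrate (-1.05, adjusted p = 0.00402) but 11.4 to 12.5 and 9.01 to 14.1 FPKM at the higher doses. The collagen chaperone gene serpinh1b (-0.87, adjusted p = 0.0116) and the fatty acid binding protein gene fabp2 (-0.57, adjusted p = 0.0114) were lower with arsenite. The clock repressor genes nr1d1 (0.29, adjusted p = 0.00584) and nr1d2a (0.33, adjusted p = 0.0158) were higher with arsenite. Leaving out 1 library left between 2 and 9 genes called, with 2 without 1 µM arsenite library 4 or 30 µg/L uranyl library 3 and 3 without 1 µM arsenite library 2 or 30 µg/L uranyl library 1. The split of 3 higher and 3 lower became 2 and 3 when each library was rescaled to the same total, and 5 and 3 with median-of-ratios scaling.

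Each called gene was also read against the 12 other exposed libraries, to see which exposure stood apart. In 110 of the 219 called genes neither did. Of the 157 genes higher with arsenite, the arsenite libraries lay above all 12 others in 47, and the uranyl libraries lay below all 12 in 51. Both held in 8 of them and neither in 67. Of the 62 genes lower with arsenite, the uranyl libraries lay above all 12 others in 14, the arsenite libraries lay below them in 5, and neither held in 43. Over all 22468 genes tested the arsenite libraries lay above the 12 others in 123 genes and below them in 33, which is 0.694% in either direction. The uranyl libraries lay above them in 164 genes and below them in 296, which is 2.05% in either direction. The call used these same arsenite and uranyl libraries, so a larger share among called genes largely follows from the call and is no further support for it. By list, the arsenite libraries lay above all 12 others in 7 of 27 NRF2 genes, 4 of 21 transferases and 4 of 24 reductases. The uranyl libraries lay below all 12 in 1, 4 and 3 genes of the same lists, and in cbr1l, gsto2, gstp1.2 and mgst3b both held.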

How the data were processed

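Polyadenylated RNA of pooled larvae was sequenced, and libraries were accepted at an RNA integrity number of at least 5.8, per the labels' protocols. The deposited table holds FPKM made by the authors for 39974 genes in 24 libraries; HISAT2 2.1.0, HTSeq 0.6.1, DESeq2 1.10.1 and the build GRCz11 are named in the submitters' processing notes, without their settings. Symbols came from tables of the assembly GRCz12tu, which matched 80.2% of the gene IDs. Genes with at least 0.5 FPKM in at least 4 of the 20 exposed libraries were tested with limma 3.58.1 (R 4.3.3, variance trend) on log2(FPKM + 1) with 5 group means, which left 15 residual degrees of freedom. Fold changes on this scale understate those of low genes. P-values were Benjamini-Hochberg adjusted over all 22468 genes tested, and tests were two-sided. The contrast was 10 µM arsenite minus 300 µg/L uranyl nitrate, with the same contrast at the lower doses and the difference between both. The code was tested on simulated data.

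FPKM values were whole multiples of 1 read in 100.0% of nonzero values (tolerance 0.001), which gave 15456854 to 22987080 reads per library. Named genes were, among called genes that have a symbol and whose groups were separate, 12 per direction by size of difference, up to 6 called members of each list by smallest adjusted p (or up to 2 of the highest mean FPKM where none was called), a few genes of earlier interest, and the 6 called genes of smallest p in the other contrasts. Genes named outside that rule are said to be so where they appear. One called list member is counted but not reported here. Members and gene lists were chosen with earlier results of these data known. Alternatives changed the pseudocount, filter, scaling, variance trend, libraries fitted and replicate block, and left out each library in turn.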

Additional observations from a re-analysis of the deposited data

Results flagged for a closer look

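Of 228 groups of 4 libraries, 12 held a library far from the other 3, where chance flags about 1 in 20 groups. With arsenite these were library 1 of ugt1a7 at 24.7 FPKM and of acana at 9.39 FPKM, and library 2 of fthl29 at 252 FPKM, of zgc:163022 at 42.6 FPKM and of dbpb at 11.6 FPKM. They were also library 3 of vil1 at 117 FPKM and of si:ch211-182p11.1 at 0.341 FPKM, and library 4 of stm at 104 FPKM. With uranyl nitrate these were library 2 of arrdc3b at 81.0 FPKM and library 3 of alas1 at 71.9 FPKM, of ugt1a7 at 8.19 FPKM and of prl2 at 1.81 FPKM.

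In 47 of 114 named genes the difference between the metals itself differed between the dose tiers (limma, Benjamini-Hochberg adjusted p under 0.05), against 0.423% of all genes tested. Of the 114 genes, 103 had been called at the higher doses, and this test uses the same higher-dose libraries. The count of 47 thus largely follows from how the genes were chosen and is no further support for them. Values below are the log2 difference at the higher doses minus that at the lower doses. Among reductase, transferase, glutathione and thioredoxin genes the values were above 0 in zgc:123284 (1.79), ptgr1.2 (1.95), cbr1l (0.81), ptgr1.1 (1.05), gsto2 (1.16), gsto1 (0.65), gstp1.2 (0.69), gstp1.1 (0.88), mgst3b (0.80), gclc (0.66), gclm (0.70), gsr (0.97), glrx (0.52), prdx1 (0.90) and txnrd3 (0.40). Among other enzymes and exporters they were above 0 in tktb (0.39), abcc2 (0.64), ugt1a7 (1.62), ugdh (1.69), cyp2y3 (0.54), pon1 (0.93), prxl2b (0.71), pir (0.62), osgn1 (0.62), aifm2 (0.55), abcb6a (0.55) and tpmt.1 (0.65). Other genes above 0 were vil1 (0.53), lct (1.16), si (0.72), zgc:163022 (1.04), slc26a1 (0.52), stip1 (0.30), rps15 (1.08) and fabp2 (0.63). Genes below 0 were gpx1b (-0.86), soul3 (-0.44), apoa4b.2 (-0.50), prl2 (-1.30), ddit4 (-1.11), arrdc2 (-0.80), ndrg1b (-1.16), LOC100536946 (-2.15), arrdc3b (-0.75), slc13a2 (-0.67), nr1d2a (-0.38) and wu:fj39h09 (-0.47). Of these, aifm2, osgn1, pir, pon1, prxl2b, abcb6a, tpmt.1, slc13a2, si, tktb and gpx1b were named after their values were seen.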

How the results depend on the processing

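The count of 219 genes at the higher doses ranged from 109 to 285 when 1 library was left out. It was 135 in a fit of only the 8 libraries and 19 when an absolute log2 difference of 1 was also required, and 157 to 233 under the other pseudocounts, filters, scalings, trend setting, limma-voom on recovered reads (194, chosen after seeing the data) and all 24 libraries. At the lower doses the count of 6 ranged from 2 to 9 and was 0 in a fit of only those 8 libraries, with a split of 5 higher and 2 lower in the fit of all 24. The difference between the contrasts (95) ranged from 50 to 157 without 1 library and was 59 with no variance trend. Members called higher fell to 7 for the NRF2 list and to 5 for the reductases in the 8-library fit, and the reductases ranged down to 5 without 1 library. For DNA replication 8 became 5 with equal totals, 0 in the 8-library fit and 0 to 15 without 1 library. For the fasting list the range was 1 to 4. The lower-dose share of 51.6% ranged from 41.1% to 60.6% without 1 library. No named gene reversed, and 25 of 103 called named genes were called in every alternative. The cause of these changes was not tested.

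Same-numbered libraries of the 2 higher-dose groups correlated at -0.069 to 0.013 in their deviations from the group means, and differently numbered ones at -0.064 to 0.098. No pairing by number was seen, but so few pairs cannot exclude one, and the labels do not say whether numbers were shared by design. With the replicate block 265 genes were called at the higher doses and 5 at the lower ones. In the fit of only the 8 libraries with the block 44 were called, and the lower-dose share was 75.0%. The count-model alternatives planned with edgeR and DESeq2 were not run, because the deposited values were FPKM. Depth limits the low genes, such as smtlb and prl2, whose libraries held as few as 2 and 6 reads.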

Other observations

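The genes in this section were chosen after their values were seen. Further antioxidant and detoxifying genes were higher with 10 µM arsenite than with 300 µg/L uranyl nitrate. The gene prxl2b, which encodes a peroxiredoxin-like prostamide reductase, had 64.9, 63.7, 59.5 and 57.4 FPKM with arsenite and 34.6, 33.2, 36.7 and 34 FPKM with uranyl nitrate, 1.77-fold apart (log2 difference 0.81, adjusted p = 6.97e-07). The paraoxonase gene pon1 had 8.47, 8.19, 7.93 and 6.88 FPKM against 3.82, 2.95, 3.2 and 3.65 FPKM (1.01, adjusted p = 1.24e-05). The libraries of the 2 metals were well apart in both genes. Of the methyltransferase gene tpmt.1 the ranges were 18.5 to 21.7 and 10.1 to 11.2 FPKM (0.84, adjusted p = 6.71e-05). The genes pir (0.64, adjusted p = 0.000298), osgn1 (0.56, adjusted p = 0.0026) and aifm2, which encodes a suppressor of ferroptosis (0.49, adjusted p = 0.00106), differed in the same direction. The superoxide dismutase gene sod1 differed by 0.27 (adjusted p = 0.012) and lost its call without arsenite library 3 (0.0512) or uranyl library 4 (0.0511), and in a fit of only the 8 libraries (0.0614). In porphyrin transport, the mitochondrial protein gene tspo (0.53, adjusted p = 0.000835) and the transporter gene abcb6a (0.55, adjusted p = 0.000833) were higher with arsenite.

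On the side of uranyl nitrate, slc13a2, which encodes a dicarboxylate transporter of kidney and gut in mammals, had 65.4, 66.4, 59.8 and 58.9 FPKM with arsenite and 84.6, 104, 111 and 105 FPKM with uranyl nitrate. It was 1.61-fold higher with uranyl nitrate (log2 difference -0.68, adjusted p = 0.00104), and its arsenite libraries lay below all 12 other exposed libraries. The organic cation exporter gene slc47a1 (-0.37, adjusted p = 0.035), hif1al (-0.46, adjusted p = 0.0272) and the endothelial genes lyve1a (-0.54, adjusted p = 0.0303) and plvapa (-0.48, adjusted p = 0.0235) were also lower with arsenite. These 4 calls were lost in 4 to 7 of the 8 refits, with adjusted p-values from 0.0504 to 0.102. A fit of only the 8 libraries also ended those of hif1al (0.0783) and plvapa (0.0969).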
